A study of Mus musculus with 5 samples.

Results

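The genes described here are the axon guidance and cadherin adhesion genes listed in forelimb muscle of mouse embryos labelled Noggin-deficient or wild type. They were chosen by the start of the gene symbol alone, whatever their values. The symbols taken were those of semaphorins, plexins, neuropilins, ephrins, Eph receptors, Robo and Slit proteins, netrins and their receptors, latrophilins, cadherins, protocadherins, Celsr proteins, neurexins, neuroligins, contactins, and related immunoglobulin or leucine-rich adhesion proteins. This gave 53 of the 4743 listed genes, of which 11 encode ligands, 10 receptors and 32 adhesion proteins. The mouse annotation GENCODE M21 holds 208 symbols of these families, and 51 of them were listed. The other two members are Lphn2, an older symbol of Adgrl2, and Robo1_copy2, an entry marked as a second copy of Robo1. No Slit, neuropilin, Ncam, neuroligin, Flrt, L1cam or Nrcam gene was among the members, and these were not analysed here. The same holds for Cdh15, the cadherin of muscle precursor cells.

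RNA of forelimb muscle was sequenced from C57BL/6 embryos at E15.5, with 1 library for each of 3 samples labelled Noggin-deficient and 2 labelled wild type control, and no treatment is named for either group. Noggin is secreted, binds bone morphogenetic proteins (BMPs) and blocks their signalling. The labels name neither the Noggin allele nor the sex or litter, and do not say whether a sample is 1 embryo or a pool, so each p-value reflects the spread among these libraries alone, and that spread may be technical. Nog itself read 0.49, 0.42 and 0.42 in the Noggin-deficient libraries and 2 and 1.99 in the wild type libraries. Of 14 skeletal muscle markers 12 were listed, and their summed value was 3637 to 3808 in the Noggin-deficient and 5335 to 5409 in the wild type libraries, so the labelled tissue was present in every library. The values are an expression signal normalized by the authors in a unit they do not name, and the listed values of a sample summed to between 92210 and 93690 (Noggin-deficient) or 100800 and 102800 (wild type). For 98.2% of all listed genes the samples of the groups did not overlap. Genes with a difference between the genotypes in these very libraries were thus what the tables list, the selection rule being not given in the sources used here, and a call below is no independent evidence of change.

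Guidance molecules steer growing axons and migrating cells by attraction and repulsion. Semaphorins signal through plexins, often with neuropilins, ephrins through Eph receptors, Slits through Robo receptors, and netrins through Dcc and the Unc5 family. Cadherins join cells of like kind by calcium-dependent binding and are tied to the actin cytoskeleton by catenins, while contactins, neurexins and their partners hold axons, glia and synapses together. In the embryonic limb these families are found in nerves, vessels, epithelia, connective tissue and muscle, so that a whole-tissue sample reads them from several cell types. In such samples fewer cells of a type and less RNA per cell cannot be told apart.

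Members went both ways between the genotypes, in every class. A member was tested where at least 2 samples had a value of at least 0.5, and changes are log2 differences of (value + 0.25), Noggin-deficient minus wild type, from limma. Of the 33 members tested, 12 rose, 19 fell and 2 were not called at an adjusted p under 0.05. Over all 3913 genes tested 98.0% were called, 37.9% as higher and 60.1% as lower, so the share of members called and its split are near those of the tables as a whole. Among the 11 ligands 6 rose and 5 fell, with a median log2 change of 0.28. Of the 6 receptors tested 2 rose and 4 fell (median -0.36), and of the 16 adhesion genes tested 4 rose, 10 fell and 2 were not called (median -0.28). The median of all genes tested was -0.28. The changes of members were moderate, from -0.85 for Cdh1 to 0.80 for Efnb3, and 2 of the 33, Cdh1 and Efna3, passed a limma test against a 1.5-fold change, where 14.5% of all genes tested passed. Of the tested members 3, Sema4f and Cdh19 among them, reached the minimum in 1 group only and so had to differ in order to be tested.

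**Figure D1:**
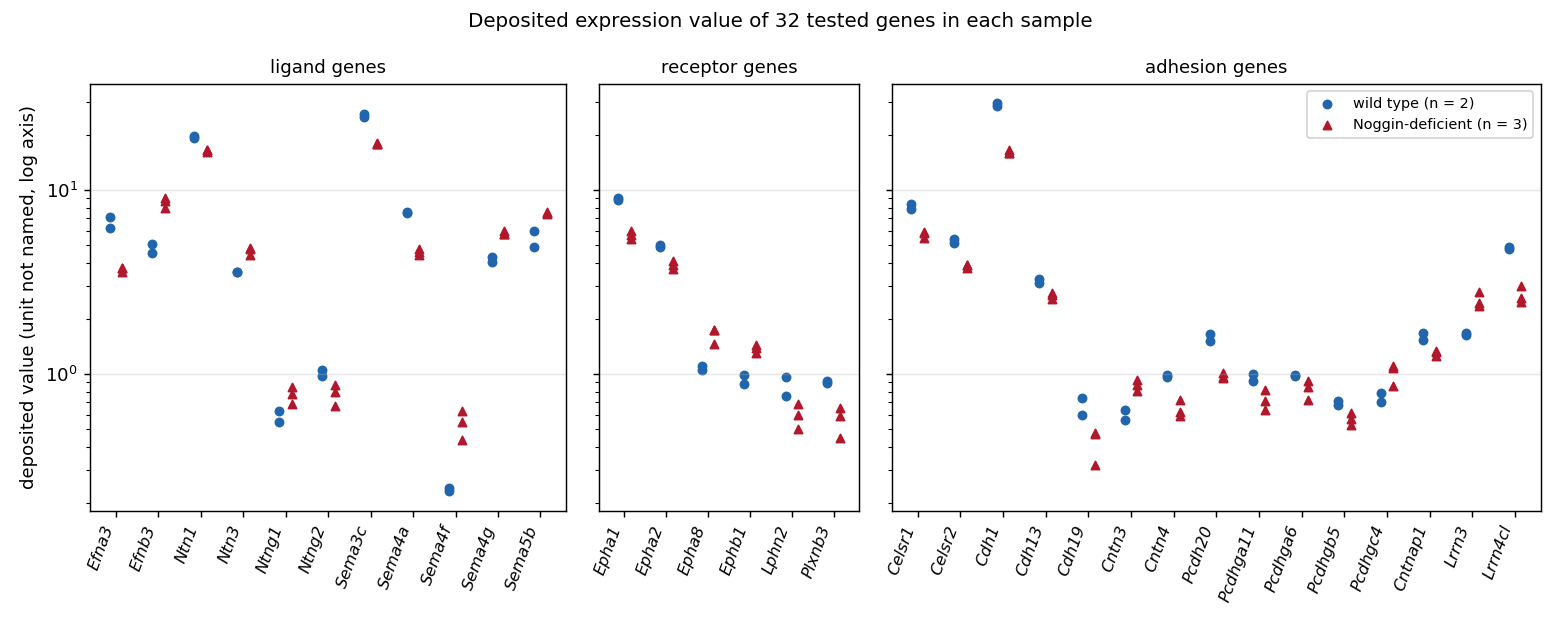
Deposited value (log axis, unit not named) of 32 of the 33 tested members in each wild type (circles) and Noggin-deficient (triangles) sample, by class. The groups did not overlap for any of these genes, as for 98.2% of all listed genes, and the gap between them was narrowest for Pcdhga6.

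Among the ephrins, membrane-bound ligands of the Eph receptors, the listed pair moved in opposite directions. Efnb3, a transmembrane ephrin of the B class, read 9.05, 8.76 and 7.94 in the Noggin-deficient libraries and 5.11 and 4.52 in the wild type libraries. Every Noggin-deficient sample was above both wild type libraries, and the log2 change was 0.80 (SE 0.071, adjusted p = 2.8e-05). Efna3, of the A class and tethered by a lipid anchor, had 3.58, 3.75 and 3.76 against 7.15 and 6.23. Its Noggin-deficient libraries were all low, with a log2 change of -0.81 (SE 0.066, adjusted p = 1.9e-05). With values as deposited, Efna3 passed the test against a 1.5-fold change (adjusted p = 0.035), while Efnb3 did not (adjusted p = 0.058). That test was not run on rescaled values. Under median-of-ratios scaling the log2 change was 1.06 for Efnb3 and -0.55 for Efna3, so which of the 2 is larger rests on the scale used.

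The Eph receptors also parted, 2 rising and 2 falling, where 98.0% of all genes tested were called in 1 direction or the other. Epha8 went from 1.05 and 1.1 in the wild type libraries to 1.73, 1.74 and 1.46, a log2 change of 0.51 (SE 0.094, adjusted p = 0.0012). Ephb1, a receptor of B-class ephrins such as Efnb3, went from 0.99 and 0.88 to 1.38, 1.44 and 1.3, a log2 change of 0.46 (SE 0.087, adjusted p = 0.0015). Both were higher in each of the 3 Noggin-deficient libraries than in either wild type sample. Epha1, an A-class receptor found in epithelia, went from 8.86 and 9 to 5.95, 5.41 and 5.71, a log2 change of -0.63 (SE 0.049, adjusted p = 1.5e-05). Epha2, an A-class receptor of epithelial cells as well, went from 5.02 and 4.89 to 3.72, 3.93 and 4.11, a log2 change of -0.32 (SE 0.056, adjusted p = 0.00093). The fall of Epha1 was also called when the libraries were rescaled by median-of-ratios factors (-0.36, adjusted p = 0.00027), but that of Epha2 was not (-0.06, adjusted p = 0.37).

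The 250 bases upstream of the RefSeq start of each Eph receptor are shown, since this is a family in which receptors of both directions were measured. They lie on GRCm38.p6, at chr6:42373269-42373518 (minus strand) for Epha1, chr4:141300971-141301220 (plus strand) for Epha2, chr4:136956817-136957066 (minus strand) for Epha8 and chr9:102354694-102354943 (minus strand) for Ephb1. The deposited values were made on another build, mm9, which plays no part in this match by symbol. Capitals mark the motifs searched on both strands, GGCGCC, a GC-rich element bound by BMP-activated SMADs, and CAGGTG, an E-box.
Epha1: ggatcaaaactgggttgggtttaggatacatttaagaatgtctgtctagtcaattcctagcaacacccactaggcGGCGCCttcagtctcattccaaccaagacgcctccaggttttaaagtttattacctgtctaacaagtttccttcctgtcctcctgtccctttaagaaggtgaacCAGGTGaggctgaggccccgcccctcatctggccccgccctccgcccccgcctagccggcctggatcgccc
Epha2: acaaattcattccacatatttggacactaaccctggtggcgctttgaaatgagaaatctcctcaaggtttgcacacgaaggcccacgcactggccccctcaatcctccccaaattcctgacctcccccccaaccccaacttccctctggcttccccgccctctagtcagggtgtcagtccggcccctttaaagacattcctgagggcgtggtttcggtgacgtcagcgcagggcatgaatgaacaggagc
Epha8: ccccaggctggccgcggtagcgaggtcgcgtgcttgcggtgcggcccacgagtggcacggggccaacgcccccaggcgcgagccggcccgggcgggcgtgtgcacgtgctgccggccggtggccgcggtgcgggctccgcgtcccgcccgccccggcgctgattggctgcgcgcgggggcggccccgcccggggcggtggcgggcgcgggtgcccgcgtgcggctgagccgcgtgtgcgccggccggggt
Ephb1: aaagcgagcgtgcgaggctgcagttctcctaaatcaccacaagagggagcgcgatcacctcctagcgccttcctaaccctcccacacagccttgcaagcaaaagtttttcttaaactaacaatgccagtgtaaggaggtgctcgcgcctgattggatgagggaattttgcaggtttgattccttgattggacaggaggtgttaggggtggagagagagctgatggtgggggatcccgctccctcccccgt

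The windows of Epha2, Epha8 and Ephb1 held neither motif. Epha1 held both, GGCGCC beginning 175 bases and CAGGTG 71 bases before the start, and the motifs do not overlap. Over all 32851 promoter windows of the same length, 9.59% held GGCGCC and 17.2% held CAGGTG. RefSeq windows were matched for 29 of the 53 members, 39 windows in all, of which 7 held GGCGCC and 8 held CAGGTG. A match is a description of the letters and not a bound site. The windows also differ in base composition, with 84% G or C upstream of Epha8 and 54% to 55.6% upstream of the others.

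Of 5 semaphorins 3 were called higher and 2 lower, where 37.9% of all genes tested were called higher and 60.1% lower. Sema3c, a secreted semaphorin that signals through neuropilins and plexins, went from 24.99 and 25.73 in the wild type libraries to 17.9, 17.85 and 17.7, a log2 change of -0.50 (SE 0.029, adjusted p = 3.6e-06). Sema4a, which is transmembrane and also serves in immune cells, went from 7.52 and 7.6 to 4.59, 4.77 and 4.45, a log2 change of -0.69 (SE 0.047, adjusted p = 8e-06). The samples of each genotype were close together for both genes, and well apart between genotypes. The members that rose are transmembrane as well. Sema4g went from 4.34 and 4.05 to 5.76, 5.99 and 5.75, a log2 change of 0.45 (SE 0.050, adjusted p = 8.4e-05). Sema5b, whose outer part carries thrombospondin repeats, went from 5.97 and 4.88 to 7.36, 7.6 and 7.49, with the same log2 change of 0.45 (SE 0.077, adjusted p = 0.00079). The wild type libraries of Sema5b were further apart than its Noggin-deficient libraries, yet both lay below all of them. Sema4f had 0.63, 0.44 and 0.55 against 0.24 and 0.23, a log2 change of 0.70, but it reached the minimum through the Noggin-deficient libraries alone and had to be higher to be tested.

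The only plexin listed, Plxnb3, a semaphorin receptor, went from 0.91 and 0.89 in the wild type libraries to 0.45, 0.65 and 0.59, a log2 change of -0.51 (SE 0.13, adjusted p = 0.0053). Its Noggin-deficient libraries were spread widely but were all below the wild type libraries. The call was lost under median-of-ratios scaling (-0.30, adjusted p = 0.067) and after adjustment for transcript length (-0.17, adjusted p = 0.23).

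Among the netrins, 2 rose and 2 fell, beside 37.9% called higher and 60.1% called lower over all genes tested. Ntn1, the secreted netrin best known as a ligand of Dcc, had 16.14, 16.43 and 16.41 in the Noggin-deficient libraries and 19.59 and 19.21 in the wild type libraries, a log2 change of -0.25 (SE 0.030, adjusted p = 0.00013). That difference, although far larger than the spread within either group, was smaller than the median fall of all genes tested. It was 0.02 (adjusted p = 0.52) under median-of-ratios scaling and was called as higher, at 0.08 (adjusted p = 0.045), after adjustment for transcript length, so its direction rests on the scale used. Ntn3, another secreted netrin, had 4.41, 4.86 and 4.77 against 3.56 and 3.56, a log2 change of 0.37 (SE 0.057, adjusted p = 0.00046).

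The netrin-G proteins, which are tethered to the membrane and bind leucine-rich partners in place of Dcc, lay close to the threshold. Ntng1 had 0.78, 0.85 and 0.69 in the Noggin-deficient libraries and 0.63 and 0.55 in the wild type libraries, a log2 change of 0.28 (adjusted p = 0.035). Ntng2 had 0.67, 0.87 and 0.8 against 1.05 and 0.97, a log2 change of -0.29 (adjusted p = 0.032). The groups were separate for both, but by little. Without Noggin-deficient replicate 1, neither was called (adjusted p = 0.069 and 0.073), and the same held without wild type replicate 1 (0.051 and 0.15) or replicate 2 (0.18 and 0.065). The call of Ntng1 was also lost without Noggin-deficient replicate 2 (adjusted p = 0.094), and that of Ntng2 under median-of-ratios scaling (-0.08, adjusted p = 0.56).

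The netrin receptors listed, Dcc and Unc5d, stayed below the minimum for testing. Dcc had 0.34, 0.31 and 0.31 in the Noggin-deficient libraries and 0.24 and 0.23 in the wild type libraries. Unc5d, of the family through which netrins repel, had 0.46, 0.48 and 0.45 against 0.34 and 0.35. Both had the higher values in all 3 Noggin-deficient libraries. The latrophilin Lphn2, an adhesion receptor that binds teneurins and Flrt proteins, had 0.5, 0.6 and 0.69 against 0.96 and 0.76, a log2 change of -0.39 (SE 0.13, adjusted p = 0.022). Its call was lost without Noggin-deficient replicate 1 (adjusted p = 0.058) and without wild type replicate 1 (adjusted p = 0.17), and under median-of-ratios scaling (adjusted p = 0.25) or adjustment for length (adjusted p = 0.67). Of the Robo receptors, Robo3 was listed at 0 in both wild type libraries and at 0.02, 0.07 and 0.02 in the Noggin-deficient libraries. Robo1_copy2 had 0.08, 0.17 and 0.07 against 0.04 and 0.06. Reads of a duplicated entry can be split between its copies, so this value need not be the level of Robo1.

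**Figure D2:**
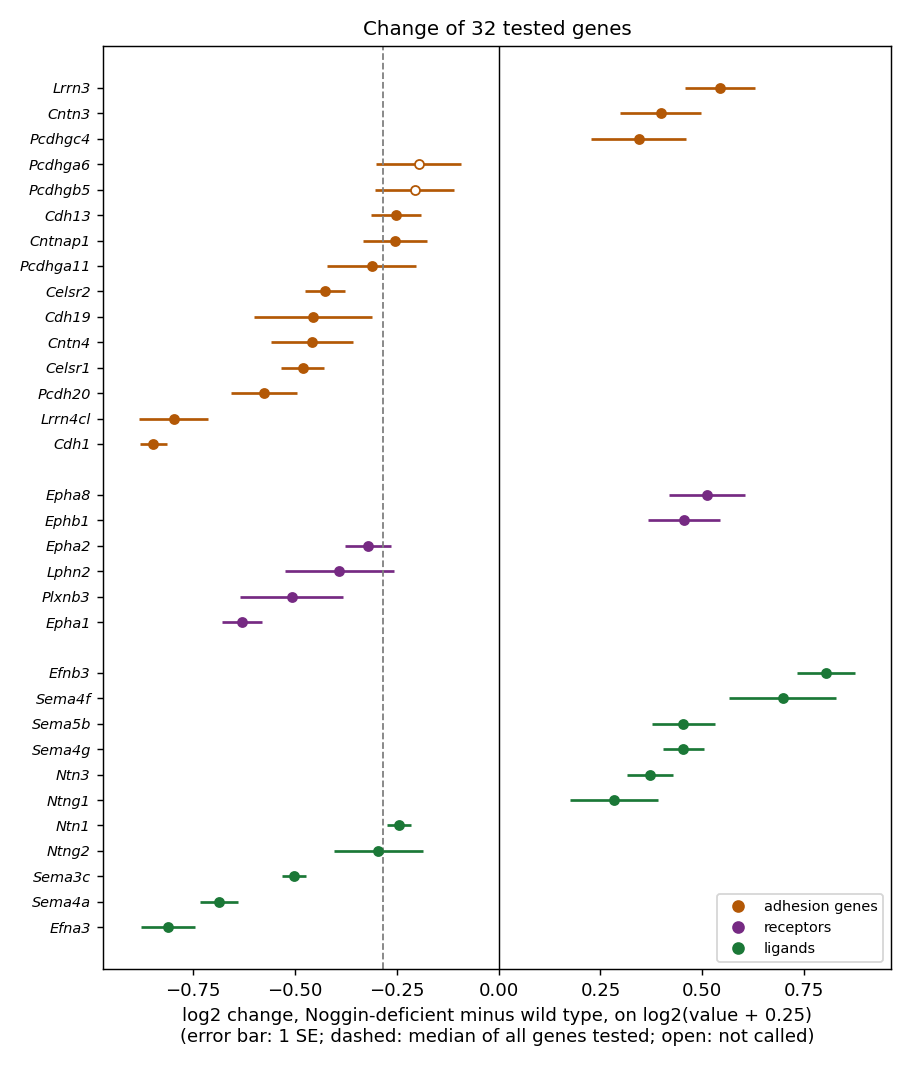
Log2 change, Noggin-deficient minus wild type, of 32 of the 33 tested members by class, with 1 SE (bars), the median of all genes tested (dashed line) and uncalled genes as open circles. Cdh1 had the lowest value and Efnb3 the highest, and the open circles are Pcdhga6 and Pcdhgb5.

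Of 6 cadherins listed, 4 were lower and 2 higher in the Noggin-deficient libraries, without overlap. Of all 4743 listed genes, 2706 were lower and 1952 higher without overlap. Cdh1 and Cdh13 reached the minimum for testing in both groups and fell, where 60.1% of all genes tested were called lower. Cdh1, E-cadherin, the adhesion protein of epithelial cell junctions, had 15.94, 16.53 and 15.9 in the Noggin-deficient libraries and 29.68 and 28.76 in the wild type libraries. The fall, -0.85 on the log2 scale (SE 0.033, adjusted p = 5.7e-07), was the largest of any tested member with values as deposited, and it passed the test against a 1.5-fold change (adjusted p = 0.00049). Cdh13, T-cadherin, which has a lipid anchor in place of a cytoplasmic tail, had 2.7, 2.55 and 2.74 against 3.3 and 3.14, a log2 change of -0.25 (SE 0.061, adjusted p = 0.0048). Under median-of-ratios scaling Cdh13 was at 0.00 (adjusted p = 0.99), and with adjustment for length at -0.01 (adjusted p = 0.89). Cdh19, a cadherin of the Schwann cell lineage, had 0.47, 0.32 and 0.48 against 0.74 and 0.6, a log2 change of -0.46. It reached the minimum through the wild type libraries alone, so its fall was needed for it to be tested and its call is not read as a result.

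The cadherins of the Celsr family act in planar cell polarity, and Celsr3 also in the growth of axon tracts. Celsr1 had 5.85, 5.93 and 5.46 in the Noggin-deficient libraries and 8.39 and 7.85 in the wild type libraries, a log2 change of -0.48 (SE 0.053, adjusted p = 8.1e-05). Celsr2 had 3.77, 3.93 and 3.89 against 5.16 and 5.39, a log2 change of -0.43 (SE 0.049, adjusted p = 0.00011). Both were lower in every Noggin-deficient sample. Under median-of-ratios scaling both were still called lower, at -0.22 (adjusted p = 0.0061) and -0.17 (adjusted p = 0.018). Their transcripts are among the longest of the members, at 10879 and 10598 bases. Once adjusted for length the changes were -0.06 (adjusted p = 0.31) and -0.01 (adjusted p = 0.88). That adjustment also moved the median of all genes tested, from -0.28 to -0.009. Celsr3, too low to be tested, went the other way, with 0.08, 0.11 and 0.16 against 0.02 and 0.02.

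Of 8 protocadherins 5 could be tested, of which 1 rose, 2 fell and 2 were not called. Among all genes tested, 37.9% were called higher and 60.1% lower. With values as deposited, 7 of the 8 were lower in all 3 Noggin-deficient libraries than in either wild type sample, as were 2706 of the 4743 listed genes. Of the 5 tested, 4 were below 0 as deposited, but 3 under median-of-ratios scaling and 2 with adjustment for length. Pcdh20, a protocadherin outside the gene clusters, went from 1.64 and 1.51 in the wild type libraries to 0.96, 0.95 and 1.01, a log2 change of -0.58 (SE 0.082, adjusted p = 0.0003). The other 7 come from the clustered array, which holds 58 protocadherin genes in the RefSeq annotation. In the order of that array they are Pcdhac2, Pcdhb18, Pcdhga1, Pcdhga6, Pcdhgb5, Pcdhga11 and Pcdhgc4. Within the alpha and the gamma cluster, each variable first exon is spliced to the same constant exons, so that reads of the constant exons cannot be told apart and these values are uncertain. Pcdhga11 fell (-0.31, adjusted p = 0.025), from 0.91 and 1 to 0.82, 0.64 and 0.71, but was not called under median-of-ratios scaling (adjusted p = 0.46) or with adjustment for length (adjusted p = 0.68). Pcdhga6 (-0.20, adjusted p = 0.10) and Pcdhgb5 (-0.21, adjusted p = 0.072) were not called, and both were above 0 with adjustment for length.

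Pcdhgc4, a C-type gamma protocadherin near the end of the array, was the exception, with 1.11, 0.86 and 1.08 in the Noggin-deficient libraries against 0.7 and 0.79. It rose by 0.34 on the log2 scale (SE 0.12, adjusted p = 0.021), and the lowest Noggin-deficient sample was only slightly above the higher wild type sample. Pcdhga11 and Pcdhgc4 each lost their call when single samples were left out. For Pcdhga11 this was so without Noggin-deficient replicate 2 or 3 or wild type replicate 2, and for Pcdhgc4 without Noggin-deficient replicate 1 or 3 or wild type replicate 1. The 3 not tested, Pcdhac2, Pcdhb18 and Pcdhga1, had values of 0.22 to 0.4 in the Noggin-deficient and 0.31 to 0.57 in the wild type libraries.

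Contactins are anchored immunoglobulin proteins of axons and glia. Cntn3 went from 0.56 and 0.64 in the wild type libraries to 0.81, 0.93 and 0.87, a log2 change of 0.40 (SE 0.099, adjusted p = 0.0055). Cntn4 went the other way, from 0.96 and 0.99 to 0.59, 0.62 and 0.72, a log2 change of -0.46 (SE 0.10, adjusted p = 0.0029), a call lost under median-of-ratios scaling (adjusted p = 0.060) and once adjusted for length (adjusted p = 0.18). The groups did not overlap for either gene. Cntn2, Cntn5 and Dscaml1, a relative of the Down syndrome adhesion molecule, were too low to be tested and had values of 0.09 to 0.18 in the Noggin-deficient libraries and 0.02 to 0.09 in the wild type libraries. Cntn5 was the 1 member whose groups met, at 0.09.

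By symbol alone, 10 genes were classed with leucine-rich proteins and with proteins of synapses or of the contacts between axon and glia. Of these 4 could be tested, of which 2 rose and 2 fell, beside 37.9% called higher and 60.1% lower over all genes tested. Besides Lrrn3, the gene that rose reached the minimum through the Noggin-deficient group alone, so the filter favoured its rise. The 6 below the minimum all had higher values in the Noggin-deficient libraries, a direction that 58.8% of all listed genes below the minimum took. Lrrn3, a leucine-rich protein of neurons, went from 1.62 and 1.67 in the wild type libraries to 2.8, 2.33 and 2.43, a log2 change of 0.54 (SE 0.087, adjusted p = 0.00056). Cntnap1, of the junction between axon and myelin beside the node, went from 1.66 and 1.53 to 1.25, 1.33 and 1.31, which gave a log2 change of -0.25 (adjusted p = 0.014). Under median-of-ratios scaling Cntnap1 was at -0.02 (adjusted p = 0.84), with adjustment for length at 0.05 (adjusted p = 0.60), and without wild type replicate 1 it was not called. Lrrn4cl, named for its likeness to the end of Lrrn4 and placed here by its symbol only, went from 4.78 and 4.89 to 3.01, 2.59 and 2.45, a log2 change of -0.80 (SE 0.084, adjusted p = 6.6e-05).

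Too low for the test were 20 members, 4 of them receptors and 16 adhesion genes, with no value above 0.58. Their means were higher in the Noggin-deficient libraries for 16 of 20, while 488 of the 830 listed genes below the minimum (58.8%) went that way. Cntnap4, a contactin-associated protein, had 0.49, 0.52 and 0.48 against 0.33 and 0.29, and Lrrtm4, a postsynaptic partner of neurexins, 0.39, 0.58 and 0.49 against 0.24 and 0.28. Cntnap2, of the axon membrane next to the paranode, had 0.11, 0.16 and 0.15 against 0.05 and 0.05, and its partner Cntn2 0.11, 0.18 and 0.11 against 0.06 and 0.06. These 4 genes were higher in every Noggin-deficient sample. Cdh20 and Cdh26 were higher too, with values up to 0.37 and 0.22 in the Noggin-deficient libraries, against up to 0.17 and 0.11. Cntnap3, Cntnap5b and Nrxn3 stayed at or below 0.08 throughout. The members below the minimum that were lower were Cdh16, at 0.16, 0.17 and 0.18 against 0.31 and 0.37, and the 3 clustered protocadherins named above. Deposited values have 2 decimals, so rounding alone is a large part of the lowest of them, and the reads behind them are unknown.

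**Figure D3:**
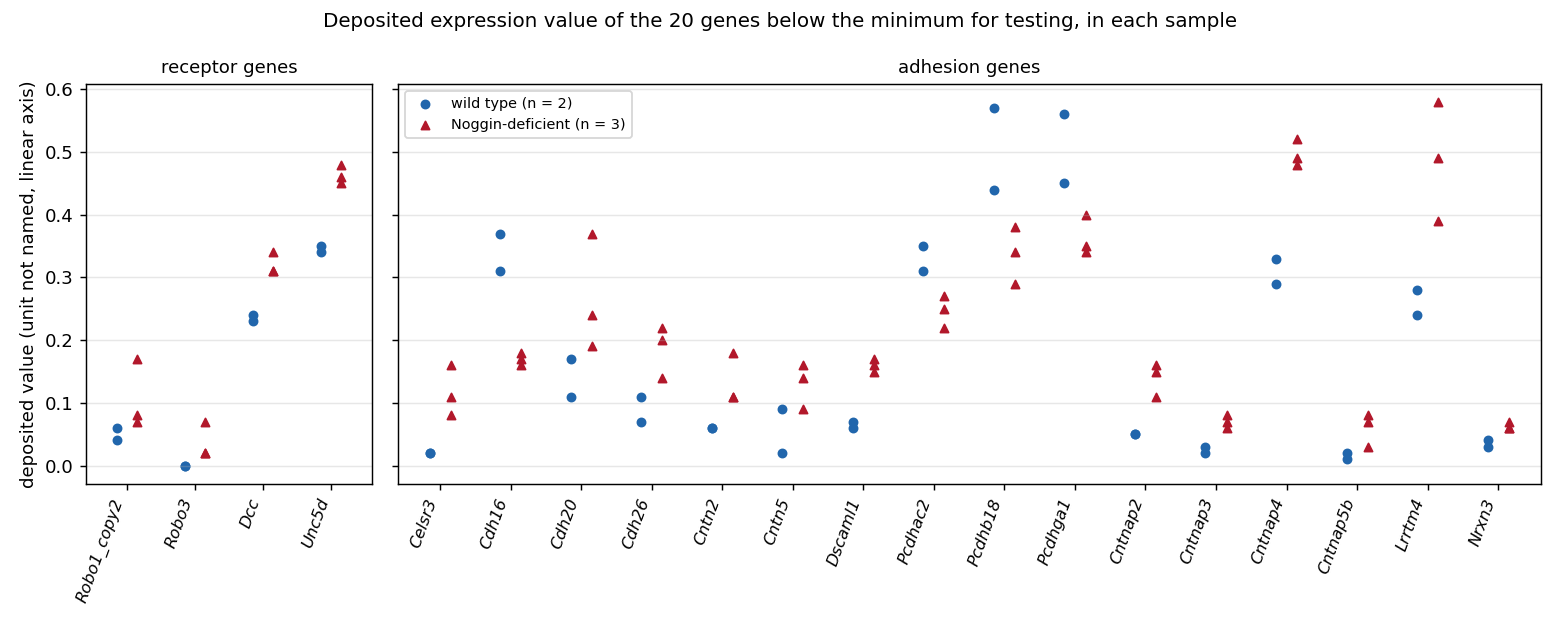
Deposited value (linear axis, unit not named) of the 20 members below the minimum for testing, in each wild type (circles) and Noggin-deficient (triangles) sample. For 16 of them the mean was higher in the Noggin-deficient libraries, and Cntn5 is the 1 gene whose groups met.

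Spread within the groups was small for most members. The median coefficient of variation of the tested members was 6.71% for the Noggin-deficient group and 3.51% for the wild type group, beside 4.64% and 3.51% for all genes tested. For the members below the minimum it was 16.6% and 12.5%. The ratio of the lowest sample of the higher group to the highest sample of the lower group ran from 1.07 for Pcdhga6 to 1.83 for Sema4f among the tested members. The groups did not overlap for 52 of 53 members, which is close to the 98.2% of all listed genes.

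Markers of other cell types moved with the genotype beside these genes, where 98.0% of all genes tested were called, 37.9% higher and 60.1% lower. Epidermal markers were lower in the Noggin-deficient libraries: 14 of 16 were listed, Cdh1 among them, all 14 fell (median -1.31), and without Cdh1 their summed value was 1162 to 1202 against 2795 to 2817. Their part in the falls of Cdh1, Epha1, Epha2 and Celsr1, genes also found in epidermis, was not tested. Neuronal markers were higher: all 14 were listed, the 13 that could be tested rose (median 1.80), and their summed value was 59.6 to 62.5 against 23.8 to 24.2. Of the 13, Stmn3, Elavl3, Elavl4, Isl1, Th and Snap25 reached the minimum through the Noggin-deficient group alone, so the filter favoured their rise. Elavl3 had 0 and 0.01 in the wild type libraries, and Th, the first enzyme of catecholamine synthesis, had 0.03 and 0.01 there against 1.62, 1.6 and 1.31. The part of neuronal RNA in the higher values of Efnb3, Ephb1, Epha8, Lrrn3, Dcc and the contactin-associated genes below the minimum was not tested. Cntnap1 and Cntn4, also genes of axons and glia, were lower with values as deposited.

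Of 12 Schwann cell markers 8 were listed, Cdh19 among them, of which 6 fell and 2, Fabp7 and S100b, rose (median -0.33), and without Cdh19 their summed value was 96.7 to 99 against 118.4 to 118.9. Under median-of-ratios scaling 4 of the 8 were above and 4 below 0. Of 12 endothelial markers Eng, Cldn5 and Vwf were listed and rose (median 0.47), with a summed value of 95.3 to 97.9 against 65.4 to 67, and Cdh5 and Robo4 were not analysed here. Of 9 fibroblast markers 3 were listed and fell (median -0.41). Of 8 cartilage and bone markers 5 were listed, of which 2 rose and 3 fell (median -0.29). Erythroid markers (4 of 9 listed, median 0.70) and liver markers (7 of 7 listed, median 3.51) all rose. Of these, Epb4.2, Alb, Apoa1, Ttr, Serpina1a and Fgb reached the minimum through the Noggin-deficient group alone, so the filter favoured their rise. Beside these lists stand the 37.9% called higher and 60.1% called lower over all genes tested. The part of these cell types in the changes of the members was not tested either.

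Genes that pass on or anchor the signals of these families were listed in part. The lists count older and newer symbols of a gene apart, so they hold fewer genes than symbols. Of 49 symbols of guidance signalling genes 15 were listed and 14 tested, of which 2 rose and 12 fell. Their median was -0.36, beside -0.28 for all genes tested. Over all genes tested 37.9% were called higher and 60.1% lower. Under median-of-ratios scaling 3 of the 14 were above and 11 below 0, and with adjustment for length 6 were above and 8 below. Crmp1, a collapsin response mediator of semaphorin signalling, went from 3.46 and 2.91 in the wild type libraries to 5.19, 5.28 and 5.01, a log2 change of 0.66 (SE 0.074, adjusted p = 8.9e-05). Ablim1, an actin-binding protein, went from 23.17 and 23.15 to 14.66, 14.87 and 15.03, a log2 change of -0.63 (SE 0.029, adjusted p = 1.3e-06). Both were fully separated between the genotypes.

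Of 18 symbols of cadherin partners 6 were listed and tested, of which 2 rose and 4 fell (median -0.31). Over all genes tested 37.9% were called higher and 60.1% lower. Under median-of-ratios scaling 3 of the 6 were above and 3 below 0. Ctnna2, the alpha-catenin of neurons, went from 0.59 and 0.49 to 1.58, 1.49 and 1.38, a log2 change of 1.14 (SE 0.099, adjusted p = 2.6e-05). Jup, plakoglobin of adherens junctions and desmosomes, went from 69.83 and 69.41 to 41.91, 43.18 and 41.77, a log2 change of -0.72 (SE 0.027, adjusted p = 5.4e-07). Ctnnd1, p120-catenin, which binds classical cadherins, changed by -0.36 and Ctnnd2, its relative in neurons, by 0.46. These values stand beside the fall of Cdh1 and the rise of neuronal markers, with which they were not tested jointly. Ctnna2 and Ctnnd2 reached the minimum for testing through the Noggin-deficient group alone, so the filter favoured their rise.

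Of 47 symbols of related adhesion genes outside the families above, older and newer symbols of a gene counted apart, 17 were listed and 15 tested. Islr2, of axons, rose by 0.32 (SE 0.11, adjusted p = 0.023), 13 fell, and Slitrk2 was not called (-0.21, adjusted p = 0.082), with a median of -0.43 over the list. Over all genes tested 60.1% were called lower, and their median was -0.28. Under median-of-ratios scaling 3 of the 15 were above and 12 below 0, and with adjustment for length 6 were above and 9 below. The desmosomal cadherin Dsc1 went from 13.65 and 14.42 to 4.22, 4.07 and 3.9, a log2 change of -1.73 (SE 0.049, adjusted p = 1.3e-07). It and the desmosomal Dsg1a, Dsg3 and Dsc3, which fell by 1.31, 1.53 and 1.26, are also on the epidermal list.

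The split of the calls depended on how the libraries were put on one scale. Median-of-ratios scaling over the listed genes moved the median of all genes tested from -0.28 to -0.03, and 12 members were then called higher and 9 lower. After a smooth trend of the change on transcript length was subtracted (adjustment for length), 13 were called higher and 8 lower. Over all genes the share of calls that were higher went from 38.7% to 53.9% and 48.7%. The tested members have long transcripts, with a median of 4713 bases beside 3422 for all genes tested with a length. The 12 members that rose were called higher under median-of-ratios scaling, upper-quartile scaling and adjustment for length alike. These settings moved the median of all genes upward, to -0.03, -0.09 and -0.009. A rise was thus favoured to keep its call and a fall to lose it, so the kept calls do not show that rises are firmer. Sema4f and the tested member not named here, both among the 12, reached the minimum through the Noggin-deficient group alone, so the filter favoured their rise. Among the 19 that fell, 7 kept their call under all 3, namely Cdh1, Efna3, Lrrn4cl, Sema4a, Epha1, Pcdh20 and Sema3c. Over all genes 1230 of 1484 rises and 1052 of 2352 falls kept theirs. These shares are too low, since only 3737 of the 3913 genes had a length and those without one were counted as not kept.

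**Figure D4:**
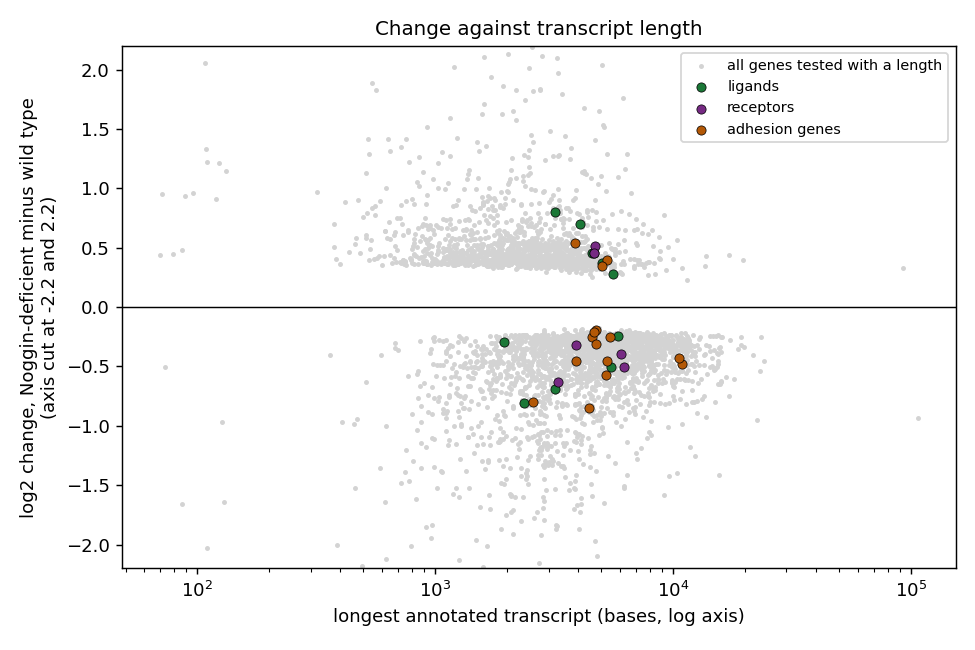
Log2 change, Noggin-deficient minus wild type, against the length of the longest annotated transcript (log axis), for all genes tested with a length (grey) and for ligands, receptors and adhesion genes (coloured), with genes beyond the limits of the vertical axis not drawn. The band around 0 holds almost no gene, since the tables list genes picked for a difference, and the median length is 4713 bases for the members and 3422 for all genes.

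**Figure D5:**
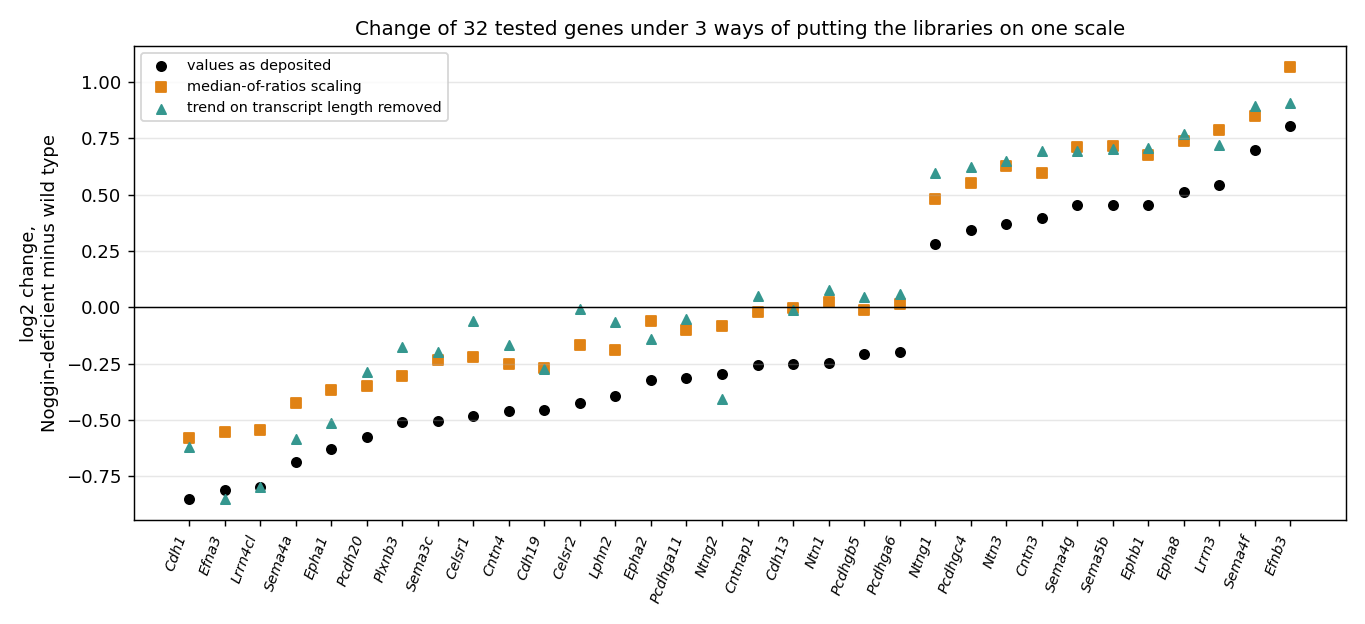
Log2 change of 32 of the 33 tested members with values as deposited (circles), under median-of-ratios scaling (squares) and after adjustment for transcript length (triangles). The 11 genes on the right, from Ntng1 to Efnb3, are above 0 under each, while Ntn1, Pcdhga6, Cntnap1 and Pcdhgb5 have a value above 0 under at least 1 of the 3.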

How the data were processed

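Per the labels' protocols, libraries were made from total RNA with a stranded mRNA kit. The authors deposited 1 normalized expression signal per gene and sample for 4743 genes, in a unit the files and labels do not name. Per the submitters' processing notes, STAR 2.4.2a, DESeq2 and mm9 were used, with no role given. Read counting, strand setting and annotation were not given in the sources used here. Values are decimals, not counts, so depth is unknown and no count model was used.

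Samples were grouped by the genotype in their titles. Log2(value + 0.25) was tested by limma 3.58.1 (R 4.3.3) with an intensity trend, without covariates, for genes that reached 0.5 in 2 or more libraries, and p-values were adjusted by Benjamini-Hochberg over all 3913 genes. Called means an adjusted p under 0.05. The code was tested on simulated data. An exact two-sided rank test of 3 samples against 2 cannot go below p = 0.2. Transcript lengths came from GENCODE M21, for 52 of 53 members.

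Members and lists were chosen with earlier results of these data known. The genes named are 29 fixed symbols (4 had values), the 8 largest rises and falls among called members with a mean of at least 1 and no overlap, the 2 highest of each subclass, all of subclasses of up to 4, and the extreme called gene of each pathway list. The other members were named after their values were seen. 1 tested member counted in the totals is not reported here by name.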

Additional observations from a re-analysis of the deposited data

How the results depend on the processing

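The number of members called higher (12) was 24 with no filter on low values, 5 with a stricter filter (at least 2 in 2 libraries) and 0 by limma against a 1.5-fold change, where 1 had an unadjusted p under 0.05. The number called lower (19) was 11 with the stricter filter, 9 when scaled by median-of-ratios, 11 by upper quartile, 8 once adjusted for length and 2 against a 1.5-fold change. In the same order (median of all members, ligands, receptors, adhesion genes), the medians -0.25, 0.28, -0.36 and -0.28 were -0.18, 0.16, -0.25 and -0.19 with a pseudocount of 1. A pseudocount of 0.05 gave -0.29, 0.36, -0.42 and -0.34. With no filter they were 0.19, 0.28, 0.21 and -0.03, the members added being low genes, mostly higher in the Noggin-deficient libraries. The stricter filter gave -0.37, 0.063, -0.48 and -0.45. Median-of-ratios scaling gave -0.021, 0.48, -0.13 and -0.061, scaling by upper quartile -0.08, 0.43, -0.18 and -0.12, and adjustment for length -0.009, 0.59, -0.10 and -0.009. When 1 sample was left out, the medians ran from -0.29 to -0.23, 0.22 to 0.35, -0.43 to -0.28 and -0.32 to -0.26, with 9 to 11 members called higher and 15 to 18 lower.

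Ntn1 turned to 0.024 and 0.076, and Pcdhga6 to 0.017 and 0.061, under median-of-ratios scaling and adjustment for length. Among the 26 named members tested, 23 lost their call against a 1.5-fold change. Limma without an intensity trend called 20 members lower and changed the call of none of the 26. With the replicate number as a block, 11 members were called higher and 17 lower, and Ntng2 was not called (-0.31, adjusted p = 0.051). Same-numbered samples did not deviate together (correlations of -0.13 and -0.06 over genes), so the numbers were not taken as pairs. Apart from the filters, which change the genes tested, the cause was not tested. The depth behind the values is unknown and limits most the members below the minimum.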
